A study of Mus musculus with 23 samples.

Results

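Sarm1 and 9 other genes of nicotinamide adenine dinucleotide (NAD) metabolism were examined in bone from mice with and without type 1 diabetes (T1D). The 10 genes were Sarm1, Nmnat1, Nmnat2, Nmnat3, Nampt, Cd38, Bst1, Nadk, Parp1, and Sirt1, and they were found by exact gene symbol among the 17644 genes of the TPM table. All 10 passed the filter on low counts and were among the 14364 genes tested. RNA-Seq had been done on marrow-depleted femur and tibia of 23 female C57BL6/N mice at 11 weeks of age, with 1 library per mouse. Diabetes was induced by streptozotocin, a compound toxic to insulin-producing β cells, and had lasted 3 weeks. Per the study's methods, injections of 100 mg/kg were given on more than 1 day. Control mice had received saline. Diabetic and saline-treated mice were either WT (6 in WT T1D and 5 in WT Control) or labelled Sarm1KO (6 in KO T1D and 6 in KO Control).

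The Sarm1KO allele is global, so every cell type of the mouse carries it, and the line had been kept on C57BL/6NTac. WT mice were littermates or had been bought from the supplier of that strain, and the labels do not say which mouse was which. The part of the gene that the allele lacks was not given in the sources used here. P values reflect the spread between mice.

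NAD carries electrons in metabolism and is also used up as a substrate by signalling enzymes. In the salvage pathway, Nampt makes nicotinamide mononucleotide (NMN) from nicotinamide, and the Nmnat enzymes turn NMN into NAD in the nucleus (Nmnat1), the cytoplasm and Golgi (Nmnat2), and mitochondria (Nmnat3). Sarm1 is an NAD hydrolase that is held inactive by NAD and switched on when NMN rises relative to NAD, as in an injured axon that has lost Nmnat2. Cd38 and Bst1 also break down NAD, Nadk phosphorylates it to NADP, and Parp1 and Sirt1 consume it to modify proteins. Among the Nmnat enzymes, Nmnat3 is the one best known from red blood cells.

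Promoter sequences are given for the gene that was targeted and for the 2 genes with the lowest P values for T1D in WT mice. Each run is the 250 bases before an annotated start, 5′ to 3′, from RefSeq on GRCm38.p6. The positions are chr11:78497755-78498004 on the minus strand for Sarm1, chr9:98296320-98296569 on the plus strand for Nmnat3, and chr4:155563565-155563814 on the plus strand for the downstream of 2 annotated starts of Nadk. Capitals mark the GC box GGGCGG and the E-box CACGTG, searched on both strands, so a GC box on the other strand reads CCGCCC.
Sarm1: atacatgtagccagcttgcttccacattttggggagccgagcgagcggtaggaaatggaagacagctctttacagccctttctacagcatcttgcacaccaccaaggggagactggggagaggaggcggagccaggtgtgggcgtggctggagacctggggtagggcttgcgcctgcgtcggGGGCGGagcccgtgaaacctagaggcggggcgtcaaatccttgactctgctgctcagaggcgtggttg
Nmnat3: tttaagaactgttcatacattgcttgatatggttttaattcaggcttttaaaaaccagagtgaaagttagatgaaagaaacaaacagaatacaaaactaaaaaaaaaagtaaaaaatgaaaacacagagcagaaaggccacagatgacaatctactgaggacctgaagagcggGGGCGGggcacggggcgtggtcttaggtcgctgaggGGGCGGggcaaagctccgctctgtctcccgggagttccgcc
Nadk: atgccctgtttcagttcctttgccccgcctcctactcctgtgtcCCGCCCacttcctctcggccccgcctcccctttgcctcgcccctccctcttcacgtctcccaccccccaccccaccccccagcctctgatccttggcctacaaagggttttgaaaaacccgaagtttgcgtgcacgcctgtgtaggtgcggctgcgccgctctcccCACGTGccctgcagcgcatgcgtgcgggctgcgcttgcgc
The Sarm1 window held 1 GC box, the Nmnat3 window held 2, and the Nadk window held 1 together with an E-box. Promoters were matched for 9 of the 10 genes, with 11 annotated starts in all. A GC box was found in 8 of these 11 windows, against 32.7% of all 32851 promoters of that length. The 2 windows of Nmnat1 overlap and hold the same GC box, and by gene 7 of 9 had one. An E-box was found in 3 of 11 (1 each of Parp1, Nadk, and Sirt1), against 6.02% of all promoters. The GATA motif AGATAA was found in 1 of 11 (Cd38), against 9.99% of all promoters. The upstream start of Nadk had none of these motifs. These matches describe the letters of the windows.

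Levels across genes were compared as TPM, which is scaled for gene length. Nadk was highest, with a mean of 87.3 TPM over the 23 mice, followed by Parp1 (33.3 TPM), Nampt (17.1 TPM), and Bst1 (12.5 TPM). Nmnat3 (9.88 TPM), Sirt1 (9.3 TPM), and Cd38 (8.68 TPM) came next. Nmnat1 (2.4 TPM), Nmnat2 (0.663 TPM), and Sarm1 (0.301 TPM) were lowest. Nadk exceeded Parp1 in 23 of 23 mice with ranges that did not overlap. The ranges of all other neighbours in this order overlapped, and Nmnat3 exceeded Sirt1 in only 11 of 23 mice and Sirt1 exceeded Cd38 in 12. Of the 3 Nmnat genes, the mitochondrial form thus had the highest RNA level in this tissue and the axonal survival factor Nmnat2 the lowest.

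The libraries themselves varied in cell content. Total counts per mouse ranged from 16938101 to 20135592. All 8 osteoblast and osteocyte markers were detected, and their summed level was 35630 to 77909 CPM (counts scaled to library size with TMM) in 21 mice. It was 4169 and 3280 CPM in WT T1D replicates 4 and 5. In those 2 mice, summed erythroid markers were 238403 and 233360 CPM and summed neutrophil markers were 42273 and 38342 CPM, compared with 98137 to 143808 CPM and 23803 to 32878 CPM in WT Control. Of the 10 erythroid markers, 10 were higher and 6 passed the threshold with T1D in WT, against 2.33% of all genes. Of the 10 neutrophil markers, 9 were higher and 0 passed, and all 8 osteoblast and osteocyte markers were lower, of which 1 passed. Without replicates 4 and 5, 0 of all genes tested passed in this comparison. No marker of these 3 lists was at 0. Summed neuronal markers were only 6.86 to 26.7 CPM. In bulk tissue, fewer cells of a type and less RNA per cell cannot be told apart. WT Control replicate 1 and WT T1D replicates 1, 2, and 3 had mouse IDs that begin with A17, and all others began with A36 to A39. What these numbers stand for was not given in the sources used here. Results that rest on WT T1D replicates 4 and 5 are given with and without them.

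None of the 10 genes passed an adjusted P of 0.05 in any of the 7 comparisons with edgeR's quasi-likelihood test. With T1D in WT, 0 of 10 were called, against 2.33% of all genes tested, while 3 had an unadjusted P under 0.05 (Nmnat3, Nadk, and Bst1), against 22.2% of all genes. With T1D in KO, 0 were called (0.0% of all genes) and 0 had an unadjusted P under 0.05 (3.15% of all genes). For the interaction, which is the T1D change in KO minus that in WT, 0 were called (0.0%) and 3 had an unadjusted P under 0.05 (Sarm1, Nadk, and Nmnat3; 10.2% of all genes). For KO against WT in Control mice, 0 were called (0.0278%) and 0 had an unadjusted P under 0.05 (4.8%). For KO against WT in T1D mice, 0 were called (0.0905%) and 3 had an unadjusted P under 0.05 (Nadk, Nmnat3, and Sarm1; 17.1%). Averaged over genotypes, 0 were called for T1D (0.111%) and 2 had an unadjusted P under 0.05 (Nmnat3 and Bst1; 16.4%). Averaged over disease states, 0 were called for KO against WT (0.132%) and 0 had an unadjusted P under 0.05 (9.98%). DESeq2 called 1 of the 10 genes with T1D in WT (Nmnat3), against 6.98% of all genes by that tool, and 0 in the other comparisons. The median change of the 10 genes with T1D in WT was 0.005 on the log2 scale, against -0.011 over all genes tested. The plot of the values by mouse shows the 10 genes in all 4 groups.

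**Figure D1:**
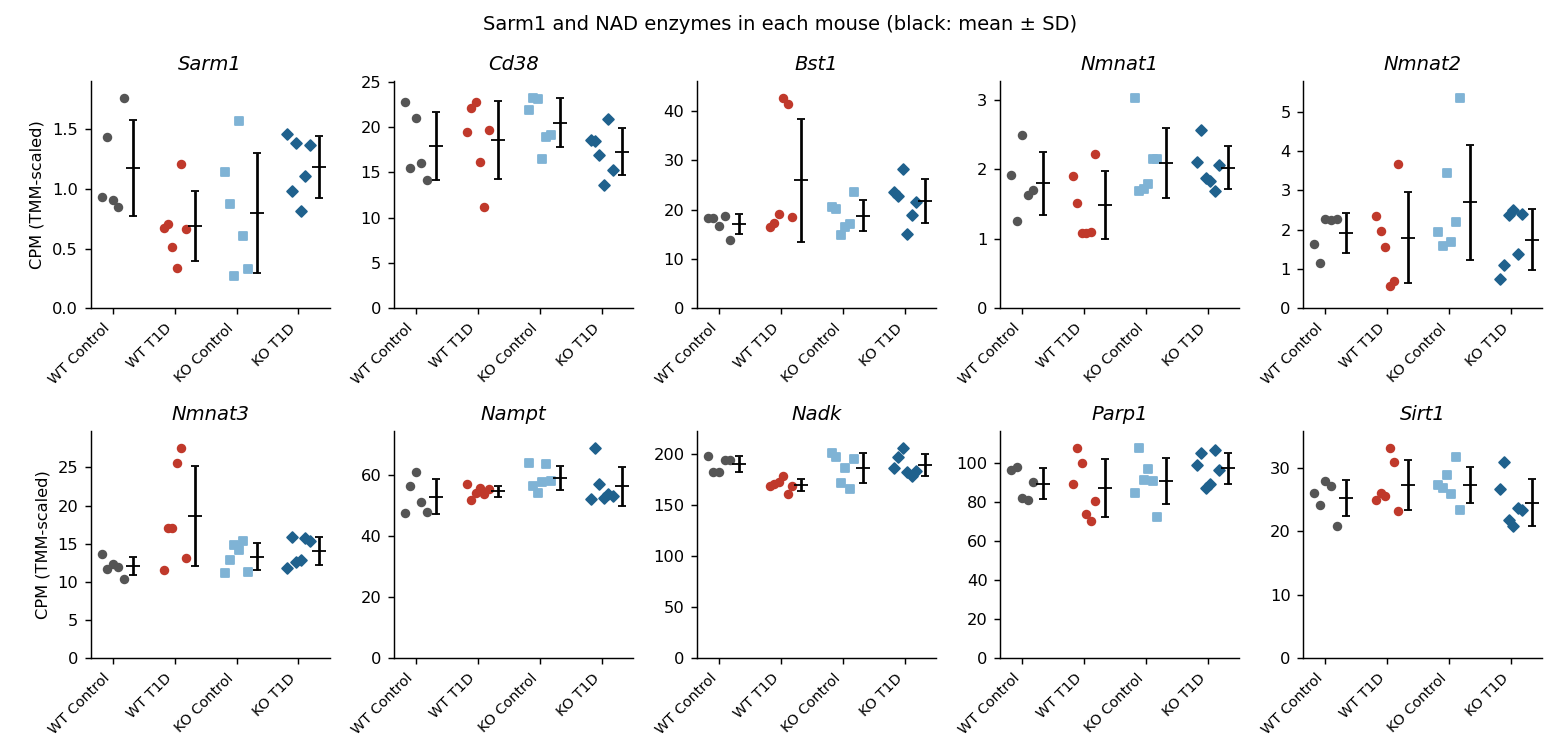
TMM-scaled CPM (vertical axes, from 0) of each of the 10 genes in each mouse of the 4 groups, 1 point per mouse, with the mean ± SD of each group in black (n = 5 WT Control, n = 6 in the other groups). For Nmnat3 and Bst1, 2 WT T1D mice stand above all other mice, at 25.6 and 27.6 CPM and at 42.7 and 41.5 CPM, and for Nadk all 6 WT T1D mice lie below all WT Control mice.

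Sarm1 (chr11:78470273-78497816, minus strand, GRCm38.p6) was close to the limit of detection, with 5 to 32 counts per mouse and at least 10 counts in 19 of 23 mice. In the 5 WT Control mice, its level was 0.931, 1.43, 0.904, 0.845, and 1.76 CPM. In the 6 WT T1D mice, it was 0.675, 0.708, 0.516, 0.34, 1.21, and 0.667 CPM. Thus, 5 of these 6 were lower than all of the WT Control mice, although the ranges overlapped. The KO Control mice had 1.14, 0.872, 0.268, 1.57, 0.606, and 0.331 CPM, and the KO T1D mice had 1.46, 0.982, 1.38, 0.811, 1.11, and 1.37 CPM. The mice labelled Sarm1KO therefore spanned nearly the same range as WT mice, and the library labelled KO Control replicate 4 was among the highest of all 23.

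Averaged over disease states, Sarm1 RNA differed between KO and WT by 0.12 on the log2 scale (SE 0.26, 95% confidence interval -0.43 to 0.66, adjusted P = 0.909, edgeR). The deposited count covers the whole gene, so it does not show whether the part that the allele lacks was transcribed. Directions drawn from the genotype are therefore those of the labels. With T1D, mean Sarm1 was 1.17 ± 0.403 CPM (SD, n = 5) in WT Control and 0.687 ± 0.293 CPM (n = 6) in WT T1D, a log2 change of -0.77 (SE 0.38, adjusted P = 0.238, edgeR). Among A36 to A39 mice it was -0.72 (SE 0.52, adjusted P = 0.353). In log2(TPM + 1) it was -0.23 (adjusted P = 0.0454, limma), where the median of all genes was -0.24 and 35.9% of all genes were called. Sarm1 was at 0.08 to 0.62 TPM, so adding 1 compressed its change. The -0.23 therefore cannot be set against that median. Mean Sarm1 was 0.402 TPM in WT Control and 0.192 TPM in WT T1D. In KO mice it was 0.799 ± 0.503 CPM in Control and 1.19 ± 0.259 CPM in T1D, a log2 change of 0.57 (SE 0.36, adjusted P = 1.0, edgeR). The difference between these values was 1.34 (SE 0.53), with an unadjusted P of 0.0184 and an adjusted P of 0.479 (edgeR).

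Two-sided exact permutation tests of the mean log2(CPM + 0.5) of Sarm1 were also done for 4 pairs of groups. For WT T1D against WT Control, P was 0.0476 (0.0952 adjusted over the 4 tests, exact permutation test). For KO T1D against WT T1D, it was 0.0152 (0.0608 adjusted, exact permutation test), with 3 of 6 KO T1D mice above every WT T1D mouse. For KO T1D against KO Control it was 0.108 (0.144 adjusted), and for KO Control against WT Control 0.177 (0.177 adjusted; exact permutation tests). No pair passed after adjustment. Leaving out 1 mouse brought the first of these differences above an unadjusted P of 0.05 in 7 of 11 cases, including WT Control replicate 5 (P = 0.114, exact permutation test). Without KO Control replicate 4, the third had an unadjusted P of 0.0216 (exact permutation test).

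The genotype labels did separate the libraries at genes near Sarm1. Another 136 genes tested had a start within 5 Mb of the Sarm1 start. A start here is the lowest coordinate of a gene, which for Sarm1, on the minus strand, is its 3′ end. Of these 136 genes, 5 (3.68%) were called for KO against WT averaged over disease states, against 0.132% of all genes. Vtn, which encodes the adhesion protein vitronectin, lies next to Sarm1 on the opposite strand, with 1303 bases between them. Its level was 1.04 to 2.26 CPM in WT Control and 0.347 to 3.43 CPM in WT T1D, compared with 12.2 to 21.0 CPM in KO Control and 12.1 to 20.6 CPM in KO T1D. All 12 KO mice were above all 11 WT mice, and the log2 difference was 3.37 (SE 0.22, adjusted P = 7.51e-10, edgeR). Ccdc92b, at -3.85 Mb relative to the Sarm1 start, went the opposite way, at 18.4 to 34.3 CPM in WT and 1.21 to 2.7 CPM in KO, a log2 difference of -3.57 (SE 0.083, adjusted P = 1.79e-19, edgeR). These were the only 2 of the 136 genes whose WT and KO ranges did not overlap. The share of all genes tested with such ranges was not counted, so this count describes the region only. Tlcd2, the third by P value, was higher in KO by 1.07 (SE 0.14, adjusted P = 0.000283, edgeR).

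Slc46a1, the proton-coupled folate transporter, was named after its values were seen because it shares 1673 bases with Sarm1 on the opposite strand. It was higher in KO by 0.63 on the log2 scale (SE 0.13, adjusted P = 0.0489, edgeR), with medians of 6.08 CPM in WT Control and 5.03 CPM in WT T1D against 8.25 CPM in KO Control and 8.26 CPM in KO T1D. In 11 of the 23 fits that left out 1 mouse, only 3 genes of the region were called. The libraries had been made with a protocol that keeps strand, but the setting used for counting was not given in the sources used here, so reads in the shared bases may belong to either gene. The plot of the genes around Sarm1 shows Sarm1 near 0 between these neighbours.

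**Figure D2:**
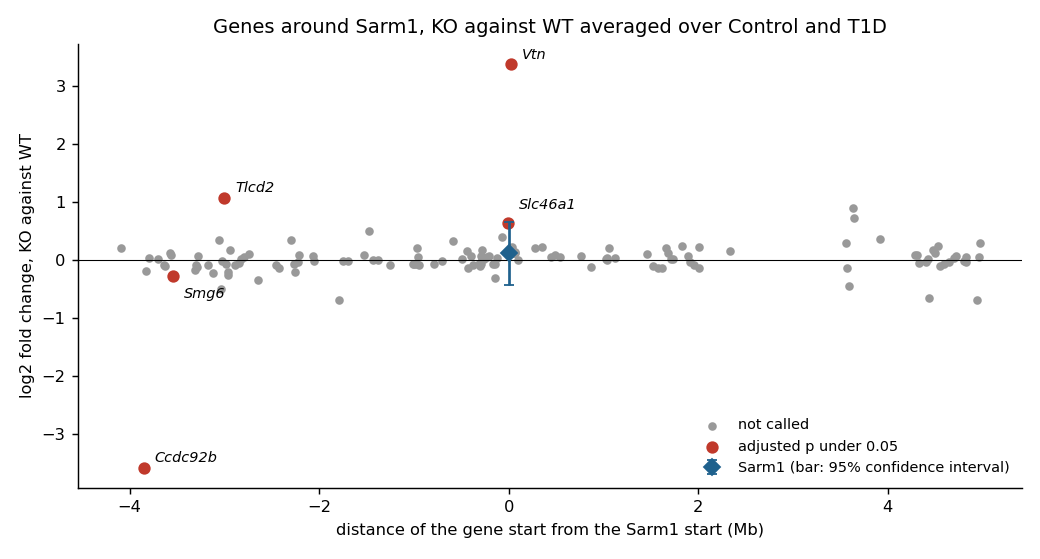
Log2 fold change of KO against WT, averaged over Control and T1D mice (vertical axis), against the distance of each gene's start from the Sarm1 start in Mb (horizontal axis), for 136 tested genes (grey), the 5 called genes (red), and Sarm1 with its 95% confidence interval (blue). Vtn at 3.37 and Ccdc92b at -3.57 lie far from the other genes, and Sarm1 lies at 0.12. A start is the lowest coordinate of a gene on either strand.

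Over the 23 mice, the genes with a mean of at least 1 CPM whose log2(CPM + 0.5) followed Sarm1 most closely were Tsr2 (Pearson r = 0.74), Dnaaf3 (0.63), and Cd5 (0.61). These values are a description over mice that share groups and depth.

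Cd38, an NAD glycohydrolase on the surface of immune and other cells, showed little difference between groups. Its lowest, median, and highest levels were 14.2, 16, and 22.8 CPM in WT Control and 11.2, 19.5, and 22.8 CPM in WT T1D. In KO mice they were 16.5, 20.5, and 23.2 CPM in Control and 13.6, 17.6, and 20.9 CPM in T1D. All 4 ranges overlapped. The log2 change with T1D was 0.05 in WT (95% confidence interval -0.28 to 0.38) and -0.24 in KO (-0.56 to 0.07).

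Bst1 (CD157) is a relative of Cd38 on marrow stromal and myeloid cells, and its gene is at chr5:43818880-43843468. Its level was 18.3, 18.3, 16.8, 18.7, and 13.8 CPM in the WT Control mice and 16.5, 17.4, 19.1, 42.7, 41.5, and 18.6 CPM in the WT T1D mice. Replicates 4 and 5 were thus far above every other WT mouse, and the other 4 WT T1D mice lay between 16.5 and 19.1 CPM. The log2 change was 0.60 (SE 0.23, unadjusted P = 0.0156, adjusted P = 0.128, edgeR) with all mice and 0.06 (SE 0.15, adjusted P = 0.929) without replicates 4 and 5. WT T1D contributes only replicates 4, 5, and 6 to the A36 to A39 mice. Among those mice the log2 change of Bst1 was 1.03 (SE 0.23, adjusted P = 0.0133, edgeR), where 15.5% of all genes were called. In KO it was 14.9 to 23.7 CPM in Control and 15.1 to 28.3 CPM in T1D, a log2 change of 0.21 (SE 0.22, adjusted P = 1.0). The genes that followed Bst1 most closely over the 23 mice were Hp (r = 0.93), Foxd4 (0.92), and Retnlg (0.91), where Hp and Retnlg are genes of maturing neutrophils. Bst1 was chosen for this listing after its values were seen, and r was 0.80, 0.84, and 0.74 without replicates 4 and 5. Summed marrow stroma markers were also higher in replicates 4 and 5, at 2006 and 2044 CPM, against 1457 to 1628 CPM in WT Control. KO Control replicate 3 had 2015 CPM of them, with Bst1 at 14.9 CPM. The part of the neutrophil and marrow stroma markers in the Bst1 values was not tested.

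Nampt, the rate-limiting enzyme of NAD salvage, varied little. Its median was 51.2 CPM in WT Control against 54.6 in WT T1D, and 57.9 in KO Control against 53.4 in KO T1D, with a range of 47.6 to 68.9 CPM over all mice. The log2 change with T1D was 0.05 in WT (95% confidence interval -0.11 to 0.21) and -0.07 in KO (-0.22 to 0.08), and both intervals were narrow.

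Nmnat1 was low, with 19 to 53 counts per mouse. Its mean was 1.8 ± 0.45 CPM in WT Control against 1.49 ± 0.491 in WT T1D (SD), and 2.09 ± 0.506 in KO Control against 2.02 ± 0.307 in KO T1D, and all ranges overlapped. KO was above WT by 0.33 on the log2 scale averaged over disease states (SE 0.16, adjusted P = 0.506, edgeR).

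Nmnat2, the axonal enzyme whose loss activates Sarm1, had 10 to 97 counts per mouse. The WT T1D mice held both extremes among WT mice. Replicates 4 and 5, with few osteoblast transcripts, had 0.566 and 0.694 CPM, and replicate 6 had 3.67 CPM, while WT Control ranged from 1.15 to 2.26 CPM. KO Control ranged from 1.59 to 5.35 CPM and KO T1D from 0.754 to 2.49 CPM. The log2 change with T1D was -0.09 in WT (SE 0.42) and -0.62 in KO (SE 0.4, adjusted P = 1.0, edgeR), with wide 95% confidence intervals of -0.96 to 0.79 and -1.45 to 0.2. The WT value turned to 0.31 (SE 0.39) without replicates 4 and 5, and to 0.11 or 0.09 without replicate 4 or 5 alone.

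Nmnat3 (chr9:98287433-98420533, plus strand) had the lowest P value of the 10 genes. In WT Control it was 13.7, 11.7, 12.3, 12, and 10.4 CPM, and in WT T1D it was 11.6, 17, 17, 25.6, 27.6, and 13.1 CPM. Hence, 4 of these 6 mice exceeded all of the WT Control mice, and replicates 4 and 5 were the highest of all mice. The mean was 12 ± 1.2 CPM (n = 5) and 18.7 ± 6.55 CPM (n = 6), a log2 change of 0.63 (SE 0.18, unadjusted P = 0.00149, adjusted P = 0.0524, edgeR). Without replicates 4 and 5, it was 0.29 (SE 0.13, adjusted P = 0.44). DESeq2 gave 0.64 with an adjusted P of 0.0163, where 6.98% of all genes were called. Among mice of the A36 to A39 ID numbers, to which WT T1D contributes replicates 4, 5, and 6 only, edgeR gave 0.94 (SE 0.19, adjusted P = 0.0102), where 15.5% of all genes were called. On the TPM scale, the change was 0.20 in log2(TPM + 1) and did not pass (adjusted P = 0.168, limma), where the median of all genes was -0.24.

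In KO, Nmnat3 was 11.2 to 15.3 CPM in Control and 11.8 to 15.9 CPM in T1D, a log2 change of 0.09 (SE 0.17, adjusted P = 1.0, edgeR). The change in KO was smaller than in WT by 0.55 (interaction -0.55, SE 0.24), with an unadjusted P of 0.0332 and an adjusted P of 0.479 (edgeR). Leaving out 1 mouse gave a log2 change in WT of 0.50 to 0.74, and the adjusted P was under 0.05 in 5 of 23 fits. The lowest, 0.0191, was reached without WT T1D replicate 6.

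The 3 genes that followed Nmnat3 most closely over the mice were Hmgb3 (r = 0.95), Orc6 (0.93), and Clspn (0.93), a chromatin protein and a pair of DNA replication factors. They were chosen after the Nmnat3 values were seen, and r was 0.82, 0.88, and 0.80 without replicates 4 and 5. Erythroid markers summed to 126863 to 238403 CPM in WT T1D. The 4 WT T1D mice with the most Nmnat3 also had the most erythroid RNA of that group. This was not so in KO T1D, where replicate 4 had the most erythroid RNA (153440 CPM) with Nmnat3 at 12.9 CPM. There, Nmnat3 was highest in replicate 2 (15.9 CPM), with erythroid markers at 120557 CPM. The part of the erythroid markers in the Nmnat3 change was not tested. The plot of Nmnat3 and Bst1 against blood cell markers shows these mice.

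**Figure D3:**
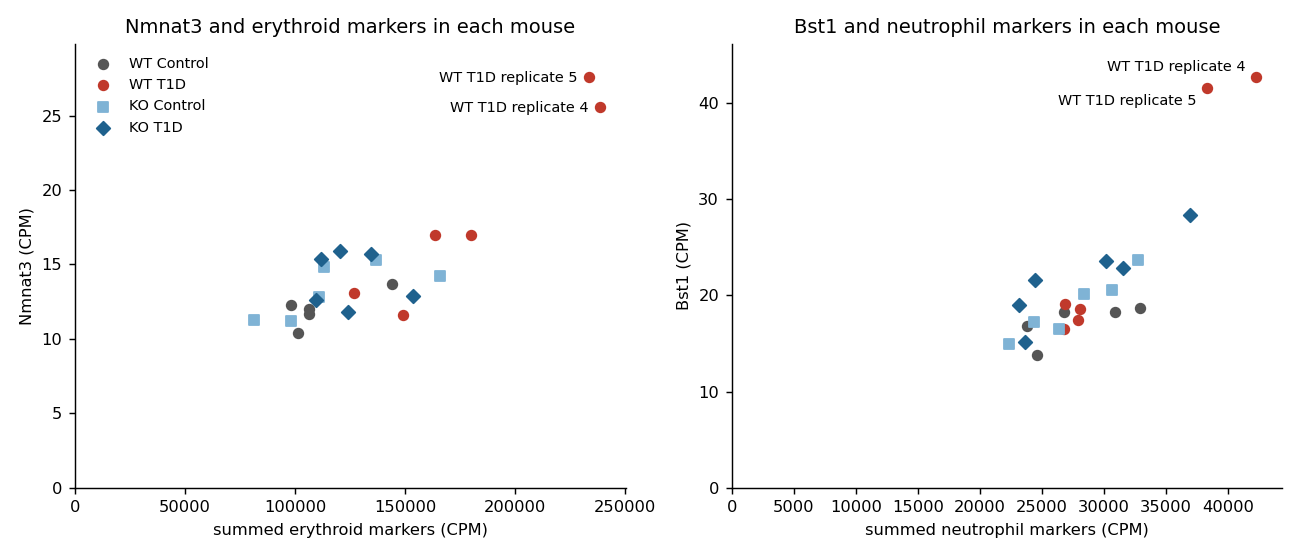
CPM of Nmnat3 against summed erythroid marker CPM (left) and of Bst1 against summed neutrophil marker CPM (right) on the horizontal axes, 1 point per mouse with a shape and colour for each group. WT T1D replicates 4 and 5 have the highest value on both axes of each panel, and without them the groups overlap in Bst1.

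Nadk, the cytosolic NAD kinase that makes NADP (chr4:155562381-155591001, plus strand), had a small difference between the WT groups and little spread within them. It was 198, 182, 182, 194, and 194 CPM in WT Control and 168, 170, 172, 178, 161, and 168 CPM in WT T1D. The highest WT T1D mouse was thus lower than the lowest WT Control mouse. Ranges did not overlap for 2.19% of all genes in this comparison. The mean was 190 ± 7.43 and 169 ± 5.46 CPM, a log2 change of -0.17 (SE 0.059, unadjusted P = 0.00991, adjusted P = 0.105, edgeR). Without replicates 4 and 5 it was also -0.17 (SE 0.07, adjusted P = 0.366), and among A36 to A39 mice it was -0.14 (SE 0.08, adjusted P = 0.23). In limma on log2(TPM + 1), it was -0.45 (SE 0.09, adjusted P = 0.00922), which is -0.21 relative to the median of all genes, and 35.9% of all genes were called on that scale.

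In KO, Nadk was 165 to 201 CPM in Control and 178 to 206 CPM in T1D, a log2 change of 0.02 (SE 0.056, adjusted P = 1.0, edgeR). All 6 KO T1D mice were above every WT T1D mouse, the closest pair both rounding to 178 CPM (0.863% of all genes had ranges apart here), with a log2 difference of 0.16 (SE 0.056, adjusted P = 0.194). The interaction was 0.19 (SE 0.081, unadjusted P = 0.0313, adjusted P = 0.479).

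Parp1, the main DNA damage-activated poly(ADP-ribose) polymerase, had a median of 90.2 CPM in WT Control against 85.0 in WT T1D, and 91.2 in KO Control against 97.8 in KO T1D. The ranges overlapped throughout. The log2 change with T1D was -0.04 in WT (95% confidence interval -0.26 to 0.18) and 0.10 in KO (-0.11 to 0.31). In log2(TPM + 1) the WT value was -0.33 (adjusted P = 0.0465, limma), against the median of -0.24, with 35.9% of all genes called. WT T1D replicates 4 and 5 had the least Parp1 of their group, at 20.24 and 19.98 TPM (74.0 and 70.4 CPM). The other WT T1D mice had 30.0 to 35.86 TPM, and WT Control mice had 31.16 to 39.73 TPM. The NAD-dependent deacetylase Sirt1 had a median of 26.0, 25.7, 27.1, and 23.5 CPM in the same groups. Its log2 change was 0.12 in WT (-0.11 to 0.34) and -0.15 in KO (-0.37 to 0.06), and in WT it was -0.02 without replicates 4 and 5. The plot of T1D changes gives all 10 genes side by side.

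**Figure D4:**
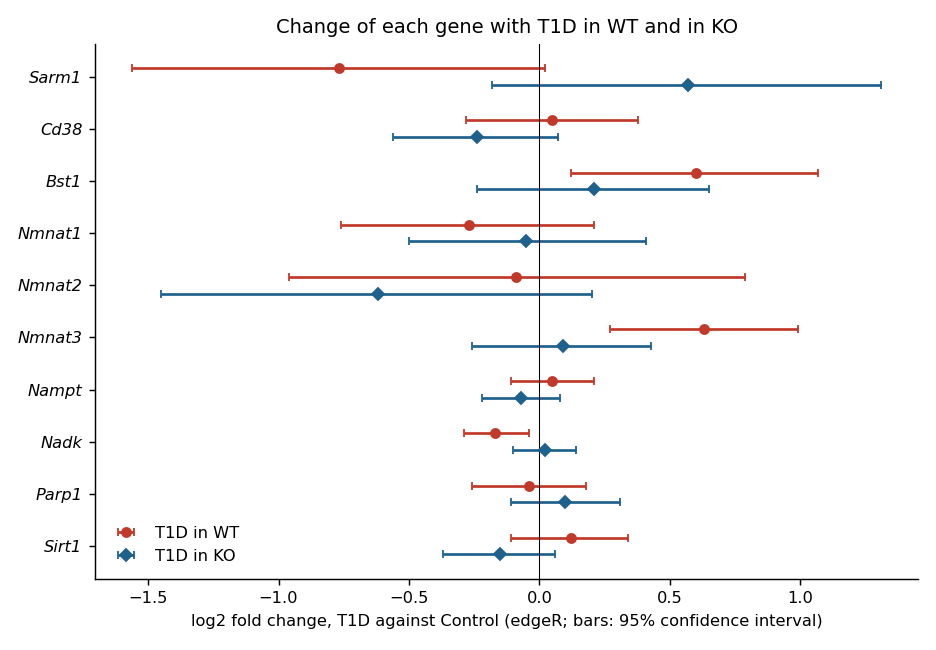
Log2 fold change of T1D against Control (horizontal axis) for each of the 10 genes, in WT (red circles) and KO (blue diamonds), with 95% confidence intervals from edgeR. In WT the intervals of Nmnat3 (0.27 to 0.99), Bst1 (0.12 to 1.07), and Nadk (-0.29 to -0.04) do not include 0, before adjustment over all genes, and in KO every interval includes 0.

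Other genes of the pathway were described from 5 lists, which held 59 genes, of which 55 were tested. With T1D in WT, 2 of 55 were called, both lower (0.828% of all genes were called lower). An unadjusted P under 0.05 was found for 12, of which 3 were higher (11.0% of all genes) and 9 lower (11.2%). With T1D in KO, 0 were called and 3 had an unadjusted P under 0.05, all lower (1.66% of all genes). In the other 5 comparisons 0 were called. An unadjusted P under 0.05 was found there for 5 of 55 genes in the interaction (10.2% of all genes), 0 for KO against WT in Control (4.8%), 12 for KO against WT in T1D (17.1%), 11 for T1D averaged over genotypes (16.4%), and 5 for KO against WT averaged over disease states (9.98%). DESeq2 called 5 of 55 with T1D in WT (6.98% of all genes by that tool), 3 with T1D averaged over genotypes (1.73%), and 1 for KO against WT in T1D (1.66%).

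Among enzymes of NAD synthesis, Kmo, a kynurenine pathway enzyme that leads from tryptophan to NAD, fell with T1D in WT. It was 14.5, 12.4, 12.1, 10.9, and 15.7 CPM in WT Control and 8.27, 10.1, 11.2, 4.25, 4.97, and 8.78 CPM in WT T1D, so 5 of 6 were below every WT Control mouse. The log2 change was -0.73 (SE 0.19, adjusted P = 0.046, edgeR). It was -0.46 without replicates 4 and 5 (SE 0.14, adjusted P = 0.288). In KO it was -0.14 (SE 0.18), and the interaction was 0.58 (SE 0.26, unadjusted P = 0.0323, adjusted P = 0.479, edgeR). Of the 10 tested genes of this list, 6 were higher and 4 lower with T1D in WT, and the median change was 0.087.

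Nmrk2, a nicotinamide riboside kinase found mainly in muscle, had the largest change of the lists with T1D in WT, at 1.04 (SE 0.8, adjusted P = 0.46, edgeR). Its level was uneven within groups. In KO Control it was 13.7 CPM in replicate 1 and 0.271 to 2.98 CPM in the others, and in WT Control it was 3.67 CPM in replicate 3 and 0.219 to 0.845 CPM in the others. These 2 mice also had the most skeletal muscle marker RNA of their groups, at 7171 and 7570 CPM. The others had 571 to 2864 and 1095 to 2563 CPM. In the T1D groups, the mouse with the most muscle RNA was not the one with the most Nmrk2. In WT T1D, replicate 6 had 4583 CPM of muscle markers and 2.33 CPM of Nmrk2, and replicate 5 had 2557 and 3.59 CPM. In KO T1D, replicate 4 had 3604 and 0.649 CPM, and replicate 1 had 2108 and 2.16 CPM. The part of muscle RNA in Nmrk2 was not tested.

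Of the 9 genes for NAD precursor handling and transport, 0 were called, and the median change with T1D in WT was -0.053. Slc12a8, a membrane transporter described as a carrier of NMN, was 1.52 to 2.69 CPM in WT Control and 0.396 to 1.45 CPM in WT T1D. These ranges did not overlap, as for 2.19% of all genes, but the log2 change of -0.94 (SE 0.34) did not pass (adjusted P = 0.113, edgeR). Without WT T1D replicates 4 and 5, the log2 change was -0.69 (SE 0.36, adjusted P = 0.491, edgeR). In KO it was -0.03 (SE 0.32), and the interaction was 0.9 (SE 0.47, unadjusted P = 0.0666, adjusted P = 0.509, edgeR).

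Of the 17 PARP and ADP-ribose enzymes, 13 were lower with T1D in WT, with a median of -0.137, and 12 were lower in KO, with a median of -0.04. Parp14, an interferon-inducible mono-ADP-ribosyltransferase, was called in WT. It was 62.0, 63.8, 70.1, 59.0, and 75.3 CPM in WT Control and 51.2, 56.2, 53.9, 35.9, 38.6, and 57.2 CPM in WT T1D. These ranges did not overlap, as for 2.19% of all genes. The log2 change was -0.44 (SE 0.11, adjusted P = 0.046, edgeR), and -0.28 without replicates 4 and 5 (SE 0.09, adjusted P = 0.308). In KO, all 6 T1D mice (47.4 to 65.1 CPM) were below the Control mice (65.2 to 75.0 CPM), where 0.258% of all genes had ranges apart, with a log2 change of -0.28 (SE 0.11, unadjusted P = 0.015, adjusted P = 1.0), and the interaction was 0.15 (SE 0.15, adjusted P = 0.729). With 1 mouse left out, 0 to 6 of the 55 genes were called with T1D in WT, and 0 in 17 of the 23 fits, including those without WT T1D replicate 4 or 5.

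The 6 other sirtuins had log2 values of -0.08 to 0.10 with T1D in WT, with 0 called. Of the 13 tested genes of the axon degeneration program, which includes the signalling that leads to and follows Sarm1 activation, 0 were called, and 8 were higher and 5 lower with T1D in WT (median 0.026). In KO, 6 were higher and 7 lower (median -0.02). The plot of the pathway lists shows these changes.

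**Figure D5:**
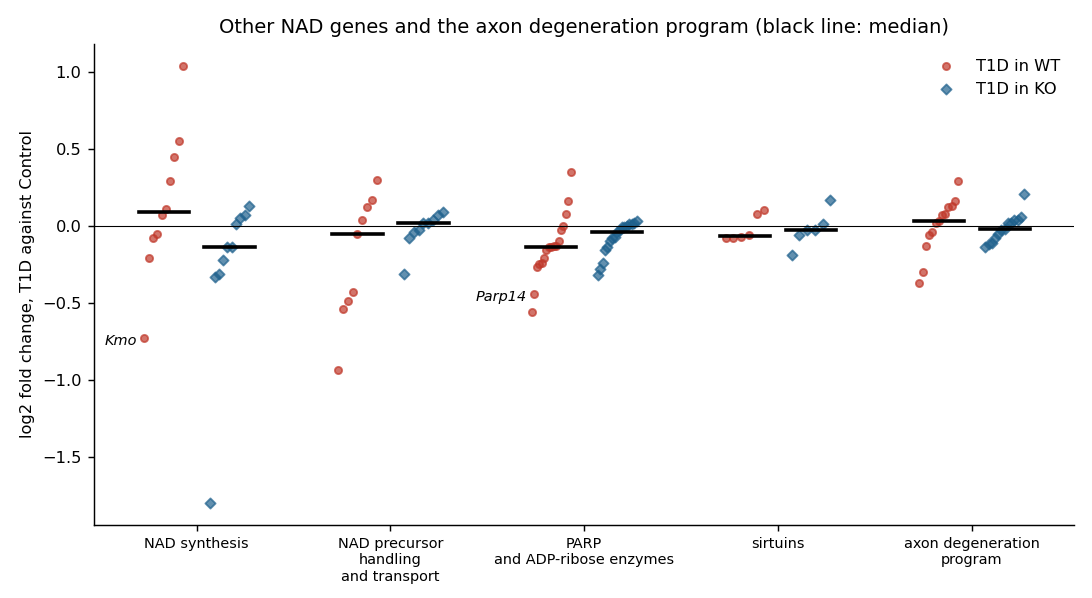
Log2 fold change of T1D against Control (vertical axis) for the 55 tested genes of the 5 lists (horizontal axis), in WT (red circles) and KO (blue diamonds), with the median of each list as a black line. Parp14 (-0.44) and Kmo (-0.73) are the 2 named genes called in WT. The lowest point in KO is Nmrk2 (-1.8, SE 0.77), which was not called. In KO Control, Nmrk2 was 13.7 CPM in replicate 1 and 0.271 to 2.98 CPM in the others.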

How the data were processed

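Per the labels and the study's methods, bone RNA from 23 mice had been made into oligo dT libraries that keep strand and sequenced as paired-end reads. SOAPnuke was used to filter reads, and HISAT and Bowtie2 aligned them to GRCm38.p6. The authors deposited expected counts estimated by RSEM and rounded to whole numbers, without normalization, and also deposited TPM values. The count table held 67228 entries. Those not in the TPM table held 1028 counts in all.

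The 14364 genes that reached 10 counts in 5 or more mice were tested with edgeR 4.0.16 in R 4.3.3. Counts were scaled by TMM and fitted with a quasi-likelihood model (the earlier estimator) of genotype, T1D, and their interaction over all 23 mice. Benjamini-Hochberg adjustment covered all genes tested, with a threshold of 0.05. CPM used the TMM-scaled library sizes. Total counts of 16938101 to 20135592 per mouse limit the precision of low genes such as Sarm1. Groups came from the labels. Within groups, the 55 pairs of mice had a chi-square per gene of 10.9 to 187, above sampling noise. On simulated data, edgeR found 70.5% of 200 genes changed by 1 on the log2 scale for T1D in WT among 14364 genes, and 5.37% of its calls were false. DESeq2 found 75.5% of them, and 13.7% of its calls were false. The simulated data held no mice of differing cell content, so these shares cannot be carried over to the real comparisons. In the real data, edgeR called 334 genes for T1D in WT with all mice and 0 without WT T1D replicates 4 and 5.

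Alternatives were DESeq2 1.42.0, RLE size factors, no filter, limma 3.58.1 on log2(TPM + 1) and log2(TPM + 0.1), mice with A36 to A39 ID numbers only, no WT T1D replicates 4 and 5, each mouse left out, and, added after seeing the data, the newer edgeR estimator. Named genes were the 10 genes, the pathway genes called or among the 3 largest changes with T1D in WT at a mean of at least 1 CPM, the 3 called genes near Sarm1 with the lowest P, and the 3 genes most correlated with Sarm1. The genes and lists were chosen with earlier results of these data known.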

Additional observations from a re-analysis of the deposited data

Results flagged for a closer look

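Nmnat1 was 3.03 CPM in KO Control replicate 1, compared with 1.69 to 2.15 CPM in the other 5 mice of the group. The gap to its nearest neighbour was 0.659 of the group's range, above Dixon's critical value of 0.625. Nampt was 68.9 CPM in KO T1D replicate 2, compared with 52.0 to 57.0 CPM in the other 5 mice, with a gap of 0.702 of the range. Of 40 groups of values tested for a mouse far from the rest, 2 stood out, and chance gives about 1 in 20.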

How the results depend on the processing

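No paired analysis was possible because the groups shared no mouse numbers. Of 2170 refitted log2 fold changes of the 10 genes, 24 passed the threshold only in the alternative and 19 changed direction with at least 1 of the compared values beyond 1 SE of 0. A further 62 changed sign with both values within 1 SE of 0 and are counted among the 2127 taken as unaltered. With T1D in WT, the number of the 10 genes called (0) became 1 with DESeq2 (6.98% of all genes called), 1 with the newer edgeR estimator (3.06%; Nmnat3, adjusted P just under 0.05), 3 with limma on log2(TPM + 1) (35.9%) and 3 on log2(TPM + 0.1) (36%; Nadk, Parp1, and Sarm1), 2 in A36 to A39 mice (15.5%; Nmnat3 and Bst1), and 0 to 1 with 1 mouse left out. On both TPM scales it became 1 for KO against WT in T1D (8.12% and 8.25% of all genes) and 1 for T1D averaged over genotypes (7.7% and 6.62%; Nadk), and in A36 to A39 mice 3 (10.8%) and 2 (3.75%). The median of all genes with T1D in WT was -0.24 on log2(TPM + 1) and -0.29 on log2(TPM + 0.1), against -0.01 for edgeR.

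Pathway genes called with T1D in WT (2 of 55) became 5 with DESeq2, 25 on both TPM scales, 9 in A36 to A39 mice, 0 without a filter (0.489% of all genes), 0 without WT T1D replicates 4 and 5 (0.0%), and 0 to 6 with 1 mouse left out, where the shares of all genes for the first 3 settings are those above. For KO against WT in T1D (0) they became 1 with DESeq2 (1.66%), 6 and 8 on TPM, and 5 in A36 to A39 mice. For T1D averaged over genotypes (0) they became 3 with DESeq2 (1.73%), 10 and 7 on TPM, 4 in A36 to A39 mice, and 0 to 2 with 1 mouse left out, and for KO against WT averaged over disease states (0), 2 in A36 to A39 mice (2.23%). Genes called near Sarm1 (5 of 136) became 3 on log2(TPM + 0.1) (0.118% of all genes), 9 in A36 to A39 mice (2.23%), and 3 to 5 with 1 mouse left out.

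In exact permutation tests, the Sarm1 difference with T1D in WT (-0.50 in log2(CPM + 0.5)) was -0.51 in A36 to A39 mice (P = 0.2) and -0.61 to -0.38 with 1 mouse left out. KO against WT in T1D (0.53) was 0.49 in A36 to A39 mice (exact permutation P = 0.0714), and T1D in KO (0.45) was 0.32 to 0.60 with 1 mouse left out.

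On log2(TPM + 1) and log2(TPM + 0.1), direction turned for T1D in WT of Nampt (-0.22 and -0.24), Cd38 (-0.22 and -0.25), and Sirt1 (-0.16 and -0.17), for the interaction of Nampt (0.12 and 0.12), for T1D averaged over genotypes of Parp1 (-0.13 and -0.14), and for KO against WT in T1D of Bst1 (0.04 and 0.05) and Sirt1 (0.04 and 0.05). Without WT T1D replicates 4 and 5 it turned for Nmnat3 (0.04) and Bst1 (0.21) in KO against WT averaged over disease states, for Bst1 in the interaction (0.14) and in KO against WT in T1D (0.28), and for Sirt1 with T1D in WT (-0.02). On the TPM scales, the median of all genes was itself -0.24 and -0.29 for T1D in WT. It was 0.2 and 0.24 for the interaction, and -0.14 and -0.17 for T1D averaged over genotypes. For KO against WT in T1D it was 0.17 and 0.21. Relative to these medians, the values listed for the TPM scales kept the direction they had with edgeR. The cause of the turns in direction was not tested.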
